A study of Mus musculus with 10 samples.

Results

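The 27 genes described here encode the enzymes that turn acetyl units into cholesterol, together with the transcription factor SREBP2, the proteins that process and retain it, and target genes of it. They were taken by name from a list ordered by pathway step. All 27 were found among the 55414 gene identifiers of the count tables, and all 27 passed the filter on low counts that left 18654 genes for testing. Other genes of the pathway are not analysed here. RNA was sequenced from jejunum, the middle stretch of the small intestine, of C57BL/6J males in which both RetSat alleles are floxed (RetSat flox/flox), retinol saturase being an enzyme that acts on vitamin A. The 5 control samples lacked a villin-Cre-ERT2 transgene, which the 5 RetSat ko samples carried. All mice of both groups were given tamoxifen for 5 days and then ate a high-fat diet (60 kcal%) over 14 weeks, and the labels do not state their age. The villin promoter drives this tamoxifen-activated Cre recombinase in the intestinal epithelium alone, whereas the RNA came from whole jejunal tissue with its muscle, immune and stromal cells. Loss of retinol saturase and presence of active Cre cannot be told apart, and since no label says outright that each sample is a separate animal, a p-value here speaks only of the spread from sample to sample.

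Cholesterol is built in the cytosol and the endoplasmic reticulum. Acetyl-CoA units are joined and reduced to mevalonate, mevalonate becomes the isoprenoids isopentenyl, farnesyl and geranylgeranyl diphosphate, pairs of farnesyl units are fused to squalene, and squalene is closed to lanosterol, which is trimmed to cholesterol. SREBP2 is made as a membrane protein of the endoplasmic reticulum. When membrane sterol is low, its escort SCAP carries it to the Golgi apparatus, where 2 proteases release the part that enters the nucleus and switches on the genes of the pathway; when sterol is plentiful, the Insig proteins hold SCAP back. The epithelium of the small intestine both absorbs cholesterol from diet and bile and makes its own.

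Promoter sequence was examined first, because the genes share a regulator that binds DNA. RefSeq promoter windows (GRCm38.p6, 250 bases before to 50 bases after a transcript start) were matched by symbol for 23 of the 27 genes, with 29 windows in all. Fdft1, Fdps, Sqle and Stard4 had no entry in the table used. Both strands were searched for the core of a sterol regulatory element, TCACCCCAC, for a looser form of it, TCACNCCAC (whose matches include those of the first), for the CCAAT box, CCAAT, and for the GC box, GGGCGG. The CCAAT box is bound by NF-Y and the GC box by Sp1, factors known to act beside SREBPs. The 200 bases before the start are given for the only gene with the sterol element core (Hmgcs1), for 2 enzymes of the mevalonate arm with paired or repeated CCAAT boxes (Mvk, Mvd), for the 2 genes called without RetSat ko 1 (Lbr and Sc5d), and for a SREBP protease without a CCAAT box (Mbtps1). Capitals mark every match of the 4 motifs that lies whole in the stretch, on either strand, so that a CCAAT box on the other strand reads ATTGG and a GC box there reads CCGCCC. Each runs 5′ to 3′ on the strand of its gene, from base -200 to base -1 before the start.
Hmgcs1: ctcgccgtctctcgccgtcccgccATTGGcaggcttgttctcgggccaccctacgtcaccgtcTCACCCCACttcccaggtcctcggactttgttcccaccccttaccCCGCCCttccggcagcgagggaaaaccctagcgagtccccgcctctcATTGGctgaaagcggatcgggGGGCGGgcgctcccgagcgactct
Mvk: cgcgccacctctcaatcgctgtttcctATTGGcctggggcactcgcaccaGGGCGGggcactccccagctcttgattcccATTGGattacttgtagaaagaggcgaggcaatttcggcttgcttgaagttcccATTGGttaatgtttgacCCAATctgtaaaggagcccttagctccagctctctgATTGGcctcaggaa
Mvd: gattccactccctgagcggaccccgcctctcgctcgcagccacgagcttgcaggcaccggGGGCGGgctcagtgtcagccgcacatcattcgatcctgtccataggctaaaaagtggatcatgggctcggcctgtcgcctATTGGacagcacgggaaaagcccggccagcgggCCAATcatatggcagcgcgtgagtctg
Sc5d: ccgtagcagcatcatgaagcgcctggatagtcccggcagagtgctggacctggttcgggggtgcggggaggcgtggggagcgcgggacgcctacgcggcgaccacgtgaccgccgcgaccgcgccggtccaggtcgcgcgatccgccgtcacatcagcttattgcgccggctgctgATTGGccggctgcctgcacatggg
Lbr: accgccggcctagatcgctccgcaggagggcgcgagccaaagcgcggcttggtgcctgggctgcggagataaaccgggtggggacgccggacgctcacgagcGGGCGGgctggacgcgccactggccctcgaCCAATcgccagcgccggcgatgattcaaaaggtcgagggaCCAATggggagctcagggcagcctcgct
Mbtps1: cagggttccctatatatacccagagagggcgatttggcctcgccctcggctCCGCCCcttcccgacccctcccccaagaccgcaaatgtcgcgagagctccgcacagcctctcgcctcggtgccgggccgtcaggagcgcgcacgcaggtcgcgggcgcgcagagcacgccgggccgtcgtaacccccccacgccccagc
In GRCm38.p6 these stretches are chr13:119690151-119690350 (plus strand) for Hmgcs1, chr5:114444069-114444268 (plus strand) for Mvk, chr8:122443423-122443622 (minus strand) for Mvd, chr9:42264301-42264500 (minus strand) for Sc5d, chr1:181842402-181842601 (minus strand) for Lbr and chr8:119558762-119558961 (minus strand) for Mbtps1. None of the 6 overlaps an exon of the annotation of that build.

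The exact sterol element core was present in 1 of the 29 windows, that of Hmgcs1, where it spanned bases -137 to -129. It was found in 0.551% of all 32851 windows of the table. The looser form gave the same single match among the members and was held by 1.24% of all windows. CCAAT was more frequent: 19 of 29 windows (65.5%) held it, against 37.4% of all windows and 37.0% of the 16094 windows of tested genes. By gene, 19 of 23 had at least 1 CCAAT match, and those without were Acat2, Mbtps1, Mbtps2 and Scap. The Mvk promoter held 5 matches, and those of Mvd and Lbr held 2 each within the last 70 bases before the start. GGGCGG was found in 23 of 29 windows (79.3%), against 35.7% of all windows and 56.7% of those of tested genes, and it was lacking in Ggps1, Mbtps2 and Pmvk. These are matches of letters in a short window and not measured binding, and some genes have several windows.

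**Figure D1:**
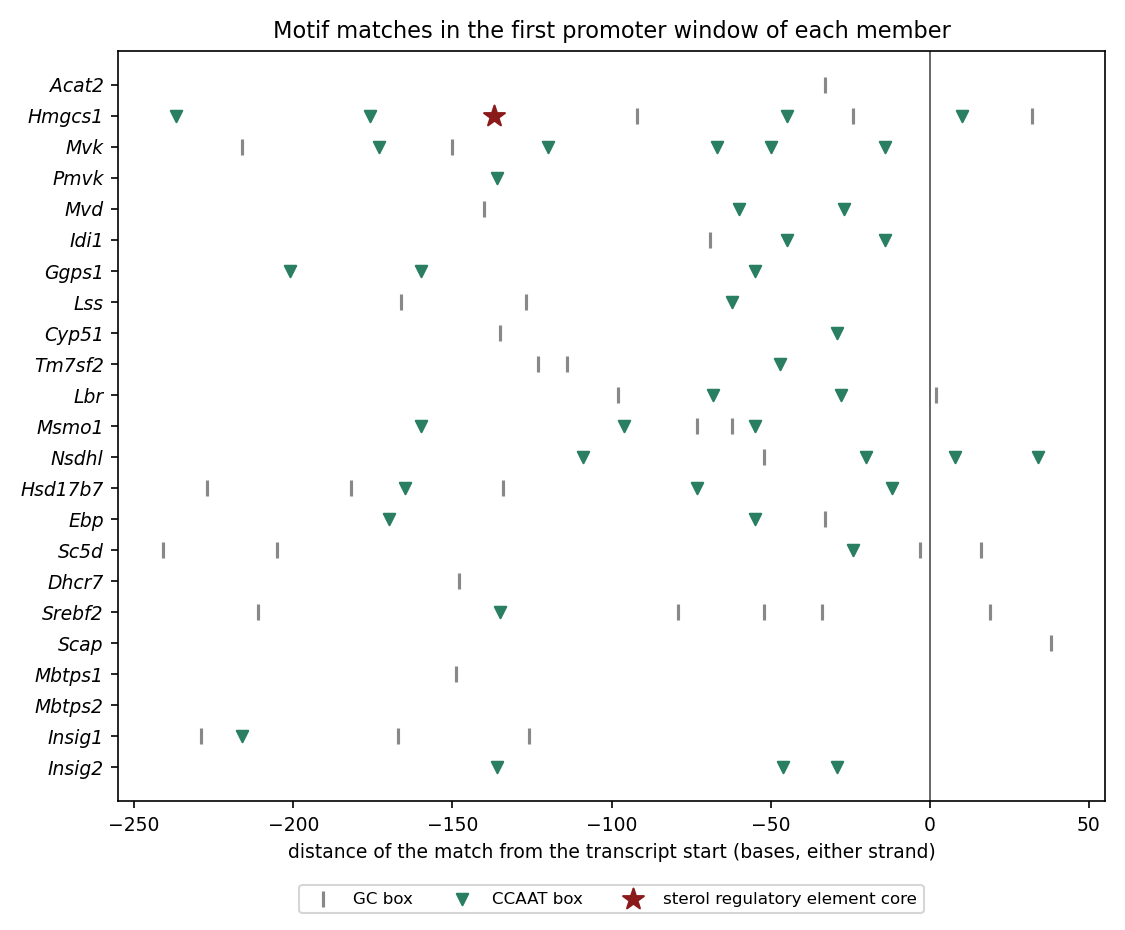
Position of motif matches relative to the transcript start (x axis, bases) in the first RefSeq window of each of the 23 member genes with an entry (y axis, pathway order), with green triangles for CCAAT, grey bars for GGGCGG and a red star for the sterol element core. Only Hmgcs1 holds a star, at -137, and of the genes of the synthetic enzymes with an entry Acat2 holds no triangle in any window and Dhcr7 none in its first.

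Depth lay between 102844680 and 128730695 counts per library, and over the 45 pairs of libraries the counts differed with a chi-square of at least 54.5 for each degree of freedom, so none was a duplicate of another. Retsat was at 4.45% of its control mean in RetSat ko (440.6 ± 101 against 19.6 ± 7.76 CPM, counts per 1000000 of the normalized library size, SD, n = 5), with no overlap. Markers of absorptive enterocytes summed to 22096 to 34425 CPM in control and 19125 to 27497 CPM in RetSat ko, and the 2 ileal markers to at most 2.24 CPM in any library. Markers of pancreatic acinar cells, which belong to a neighbouring organ, ran from 0.187 to 195 CPM in control and from 0.534 to 2119 CPM in RetSat ko (7 of 8 tested, all 7 with positive log2 fold changes, with Cela2a, Prss2 and Cel at 0 in control 3 alone and Cpa1 and Amy2a5 at 0 there and in other libraries). B cell markers ran from 7.28 to 60.1 and from 9.92 to 134 CPM, with 6 of 7 tested and all 6 positive. Of all tested genes 53.9% were positive.

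Taken gene by gene, most members stood higher in RetSat ko, but with all 10 libraries none of them changed past the threshold. Of the 27, 22 had a positive log2 fold change, RetSat ko minus control (81.5%), against 53.9% of all tested genes, and the median was 0.13, against 0.020 over all tested genes. In edgeR's quasi-likelihood test 0 of the 27 passed an adjusted p of 0.05, where 0.0322% of all genes did. At an unadjusted p under 0.05 there were 8 members higher in RetSat ko (29.6%) and 0 lower, against 6.79% and 5.45% of all genes. These 8 were Mvk, Mvd, Idi1, Fdps, Fdft1, Sqle, Lss and Cyp51, all between mevalonate and the first step after lanosterol, a stretch of the pathway that also holds Pmvk and Ggps1. In DESeq2 8 members were higher and 0 lower at an unadjusted p under 0.05, against 6.88% and 6.34% of all genes. It called 1 member, Mvd (log2 fold change 0.48, adjusted p = 0.0481 in DESeq2), while it called 0.359% of all genes as higher. limma-voom called 0 members, with and without sample weights. In bulk tissue fewer cells of a type and less RNA per cell cannot be told apart.

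One library, RetSat ko 1, held the highest value of all 10 in 22 of the 27 members (81.5%), whereas it was highest in 15.6% of all tested genes. The median deviation of its members from their gene means was 0.43 on the log2 scale. The other RetSat ko libraries stood at 0.15, -0.11, 0.021 and 0.0035, and control 1 to 5 at -0.073, 0.080, -0.22, -0.20 and -0.087. Control 3 held the lowest value in 10 members, where it was lowest in 15.2% of all tested genes. RetSat ko 1 was lowest in 1, Lbr, against 15.8% of all tested genes.

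RetSat ko 1 also stood apart from RetSat ko 2 to 5 in the sums of some cell markers. The dividing crypt cell markers summed to 299 CPM in RetSat ko 1, the lowest of all libraries. They summed to 376 to 435 CPM in RetSat ko 2 to 5 and to 305 to 347 CPM in control. Over this list 8 of 8 markers had a positive log2 fold change, 6 of them at an unadjusted p under 0.05. Marker counts here are read against all tested genes, of which 53.9% were positive, and 6.79% were higher and 5.45% lower at that p. No tested marker of any list passed the adjusted threshold in edgeR. The enterocyte markers summed to 27497 CPM in RetSat ko 1 and to 19125 to 21007 CPM in RetSat ko 2 to 5, where every one of the 4 lay below every control. Of the 9 markers, 1 was positive, and 4 were lower at an unadjusted p under 0.05. Single markers, named after their values were seen, did not all follow the sums. In RetSat ko 1 Alpi (5993 CPM) was the highest of all libraries and Anpep (1976 CPM) the lowest. Lct (1511 CPM) lay below RetSat ko 3 to 5 there, and the crypt marker Rrm2 (32.2 CPM) lay above every control. Adipocyte markers other than Cidec, left out after its values were seen because enterocytes can express it, summed to 0.157 CPM in RetSat ko 1, 1.51 CPM in RetSat ko 2 and 12.8 to 27.7 CPM in RetSat ko 3 to 5, with 0.0691 to 9.90 CPM in control (1 of the 6 listed, Cidec included, was higher at an unadjusted p under 0.05 and 5 were positive). Retsat itself was 16.8 CPM in RetSat ko 1. Control 3 stood apart from the other controls in smooth muscle markers, which summed to 142 CPM there, the lowest of all libraries. They summed to 400 to 517 CPM in the other controls and to 360 to 651 CPM in RetSat ko. Of these 4 markers, 4 had a positive log2 fold change and 0 an unadjusted p under 0.05. The enterocyte sum was highest in control 3, at 34425 CPM. The part of these cell markers in the values of the members was not tested.

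Leaving RetSat ko 1 out, 17 of the 27 members were positive, against 10398 of all 19001 genes tested in that fit. The median was 0.078, against 0.032 over all genes of that fit, and 2 members passed the adjusted threshold in edgeR. Lbr was higher (log2 fold change 0.30 ± 0.0766, adjusted p = 0.0498 in edgeR) and Sc5d was lower (-0.22 ± 0.0457, adjusted p = 0.0319 in edgeR). This fit called 1.95% of all genes higher and 2.5% lower, so 1 member in each direction is near the background. At an unadjusted p under 0.05, 8 members were higher (29.6%) and 2 lower (7.41%), against 11.4% and 12.2% of all genes. Fdft1 left the group of 8 and Lbr entered it, and the 2 lower were Sc5d and Insig2. Without the 4 libraries richest in acinar markers (RetSat ko 2, RetSat ko 1, control 5 and control 4), 13 of 27 were positive, against 53.6% of all genes in that fit, and the median was -0.0086. The signs of Hmgcs1, Tm7sf2, Msmo1, Nsdhl, Hsd17b7, Ebp, Dhcr7, Insig1 and Insig2 turned negative there, and Insig1 stood at -0.53. In that fit of 3 against 3 libraries 0 members passed the adjusted threshold in edgeR, and 3 were higher and 3 lower at an unadjusted p under 0.05, against 7.97% and 8.36% of all genes. Without the 3 libraries richest in B cell markers, 22 were positive, against 50.5% of all genes. At an unadjusted p under 0.05, 7 members were then higher and 0 lower, against 2.29% and 2.09% of all genes.

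**Figure D2:**
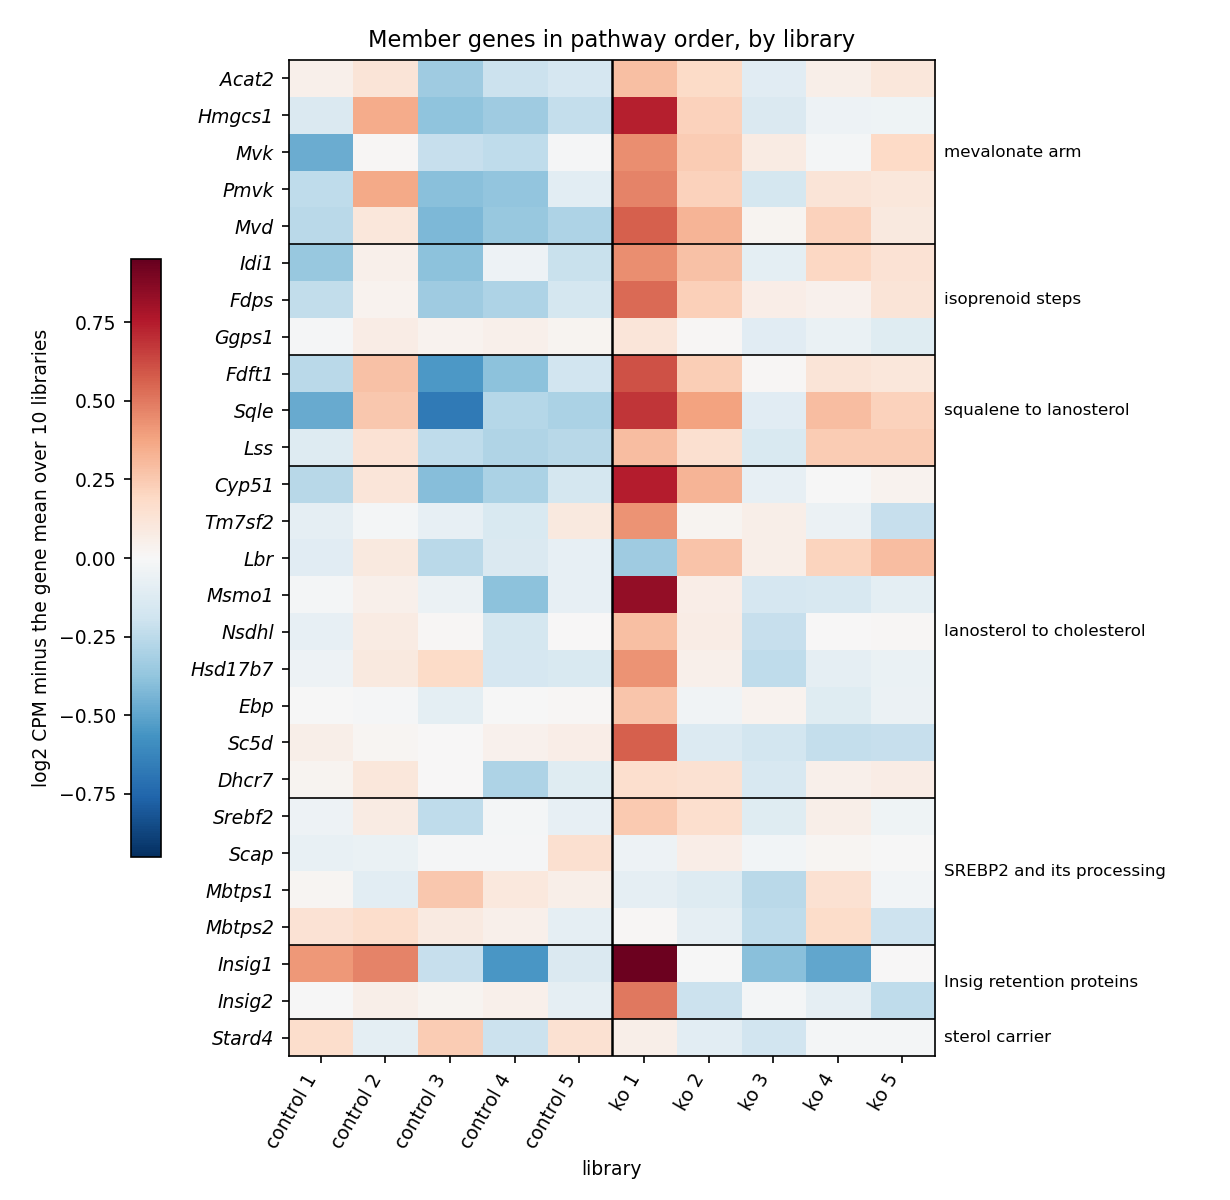
Each cell is the log2 CPM of a member (rows, pathway order with step names) in a library (columns, control 1 to 5, then RetSat ko 1 to 5) minus the mean of that gene over the 10 libraries. The column of RetSat ko 1 is red from Acat2 to Dhcr7 except for Lbr, and the block from Mvk to Cyp51 is mostly blue in control apart from control 2.

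The mevalonate arm begins the pathway, and its 5 genes all had positive log2 fold changes (median 0.31), 2 of them at an unadjusted p under 0.05. Acat2 (ENSMUSG00000023832.15, GRCm39 chromosome 17, 13161777 to 13179634, minus strand), the cytosolic thiolase that joins 2 acetyl-CoA units, was at 33.5, 35.1, 25.6, 28.1 and 28.9 CPM in control 1 to 5 and 39.5, 36.7, 29.9, 33.6 and 34.9 CPM in RetSat ko 1 to 5. RetSat ko 1 and RetSat ko 2 lay above every control and the other 3 inside the control range. On the log2 scale it differed by 0.21 ± 0.0990 (SE, adjusted p = 0.423 in edgeR). Its counts are uncertain where reads also match the near-identical Acat3 (97.7% over 1477 transcript bases, 938 counts over all libraries) or Tcp1 (98.7% over 445 bases, 207096 counts).

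Hmgcs1 (ENSMUSG00000093930.3, GRCm39 chromosome 13, 120151915 to 120169796, plus strand), the synthase that makes HMG-CoA, was at 159, 223, 134, 139 and 149 CPM in control 1 to 5 and 292, 204, 159, 169 and 169.5 CPM in RetSat ko 1 to 5. Only RetSat ko 1 exceeded control 2, the highest control by a wide gap, and RetSat ko 2 to 5 lay at or above the other 4 controls. Its log2 fold change of 0.31 ± 0.187 (adjusted p = 0.528 in edgeR) was 0.13 ± 0.145 without RetSat ko 1.

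Mvk (ENSMUSG00000041939.15, GRCm39 chromosome 5, 114582330 to 114598652, plus strand), mevalonate kinase, was at 14.7, 20.6, 17.5, 17.2 and 20.2 CPM in control 1 to 5 and 27.7, 24, 21.5, 20.1 and 23.3 CPM in RetSat ko 1 to 5. All RetSat ko libraries but RetSat ko 4 were higher than every control. In the fit of all libraries the log2 fold change was 0.37 ± 0.109 (adjusted p = 0.291 in edgeR), and it was 0.30 ± 0.102 without RetSat ko 1. Pmvk (ENSMUSG00000027952.17, GRCm39 chromosome 3, 89361848 to 89376320, plus strand), the kinase of the next step, was at 18.9, 28.7, 17, 17.3 and 20.9 CPM in control 1 to 5 and 31, 26, 19.96, 24.4 and 24.1 CPM in RetSat ko 1 to 5. Control 2 was second only to RetSat ko 1, so the groups overlapped, and the log2 fold change was 0.29 ± 0.153 (adjusted p = 0.463 in edgeR).

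Mvd (ENSMUSG00000006517.6, GRCm39 chromosome 8, 123160340 to 123170161, minus strand), the decarboxylase that yields isopentenyl diphosphate, was at 19.4, 25, 17.2, 18.1 and 19 CPM in control 1 to 5 and 34.3, 29, 23.7, 27.1 and 24.7 CPM in RetSat ko 1 to 5. All 5 RetSat ko libraries exceeded 4 of the 5 controls, with control 2 above RetSat ko 3 and RetSat ko 5. Mvd had the smallest unadjusted p of the members, with a log2 fold change of 0.49 ± 0.121 (adjusted p = 0.291 in edgeR), and of 0.40 ± 0.109 without RetSat ko 1 (adjusted p = 0.0576 in edgeR).

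Of the 3 genes of isoprenoid synthesis, 2 were higher at an unadjusted p under 0.05 and the median was 0.38. Idi1 (ENSMUSG00000058258.15, GRCm39 chromosome 13, 8935537 to 8942487, plus strand), the isomerase that makes the starter unit of isoprenoid chains, was at 6.04, 8.03, 5.92, 7.47 and 6.67 CPM in control 1 to 5 and 10.5, 9.37, 7.25, 8.88 and 8.51 CPM in RetSat ko 1 to 5. RetSat ko 1, 2, 4 and 5 lay above every control. The log2 fold change was 0.38 ± 0.120 (adjusted p = 0.303 in edgeR), and the processed pseudogenes Gm13502 and Gm35570 resemble its transcript closely enough (100% over 684 bases and 97.7% over 681) to make the counts uncertain.

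Fdps (ENSMUSG00000059743.13, GRCm39 chromosome 3, 89000895 to 89009266, minus strand), farnesyl diphosphate synthase, was at 20.7, 25, 19.2, 19.9 and 21.7 CPM in control 1 to 5 and 35.3, 28.5, 25.5, 25.1 and 26.5 CPM in RetSat ko 1 to 5. It was the only member whose groups did not overlap, by a narrow margin between control 2 and RetSat ko 4, where 1.58% of all tested genes were separated in this direction. The fitted difference was 0.40 ± 0.105 on the log2 scale (adjusted p = 0.291 in edgeR), and 0.31 ± 0.0815 without RetSat ko 1 (adjusted p = 0.0539 in edgeR), when its groups were again apart, as for 5.99% of all tested genes in that direction. Processed pseudogenes of Fdps, among them Gm3571 with 98.9% identity over 1062 bases, held few counts of their own (293 over all libraries for Gm3571). Of the exon bases of Fdps 26.7% (1124) are shared with Gm43738 on the same strand, which held 2 counts over all libraries. A read wholly inside these bases overlaps both genes alike, so the counts of Fdps are uncertain there.

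Ggps1 (ENSMUSG00000021302.11, GRCm39 chromosome 13, 14225244 to 14238073, minus strand), which extends farnesyl to geranylgeranyl diphosphate and so leads away from sterols, was at 20.3, 21.4, 21, 21.2 and 20.8 CPM in control 1 to 5 and 22.1, 20.6, 19, 19.5 and 18.9 CPM in RetSat ko 1 to 5. The controls lay within a coefficient of variation of 2.00%, RetSat ko 1 was above them and RetSat ko 3, 4 and 5 below. The fit gave a log2 fold change of -0.065 ± 0.0628 (adjusted p = 0.699 in edgeR), the only negative one of the first 11 genes of the pathway.

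The 3 enzymes that carry farnesyl units to lanosterol were all higher at an unadjusted p under 0.05, with a median of 0.42. Fdft1 (ENSMUSG00000021273.12, GRCm39 chromosome 14, 63382599 to 63417027, minus strand), squalene synthase, was at 36, 52.1, 29.4, 32.7 and 37.8 CPM in control 1 to 5 and 65.3, 50.6, 43.4, 46.8 and 46.3 CPM in RetSat ko 1 to 5. Every RetSat ko library exceeded control 1, 3, 4 and 5, and only RetSat ko 1 exceeded control 2. The log2 fold change was 0.42 ± 0.155 (adjusted p = 0.331 in edgeR). Of its exon bases 18.8% (774) are shared with Ctsb on the opposite strand, a gene with far more counts and a log2 fold change of -0.13 ± 0.0977, and counting did not use strand.

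Sqle (ENSMUSG00000022351.15, GRCm39 chromosome 15, 59186926 to 59203041, plus strand), squalene epoxidase, a rate-controlling step of the pathway, was at 30.7, 51.1, 26.8, 35.3 and 34.6 CPM in control 1 to 5 and 68.3, 55.8, 39.6, 52.4 and 49.6 CPM in RetSat ko 1 to 5. RetSat ko 1, 2 and 4 exceeded every control, and RetSat ko 3 and 5 exceeded all but control 2. This was the largest log2 fold change among the members, 0.57 ± 0.179 (adjusted p = 0.307 in edgeR), or 0.47 ± 0.177 without RetSat ko 1. Lss (ENSMUSG00000033105.13, GRCm39 chromosome 10, 76367422 to 76392972, plus strand), lanosterol synthase, was at 22.6, 27.1, 20.9, 20.2 and 20.5 CPM in control 1 to 5 and 30.2, 27.4, 22.2, 29.1 and 29.1 CPM in RetSat ko 1 to 5. RetSat ko 3 lay inside the control range and the other 4 lay above every control. The log2 fold change of Lss was 0.31 ± 0.103 (adjusted p = 0.314 in edgeR), and 0.28 ± 0.107 without RetSat ko 1.

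**Figure D3:**
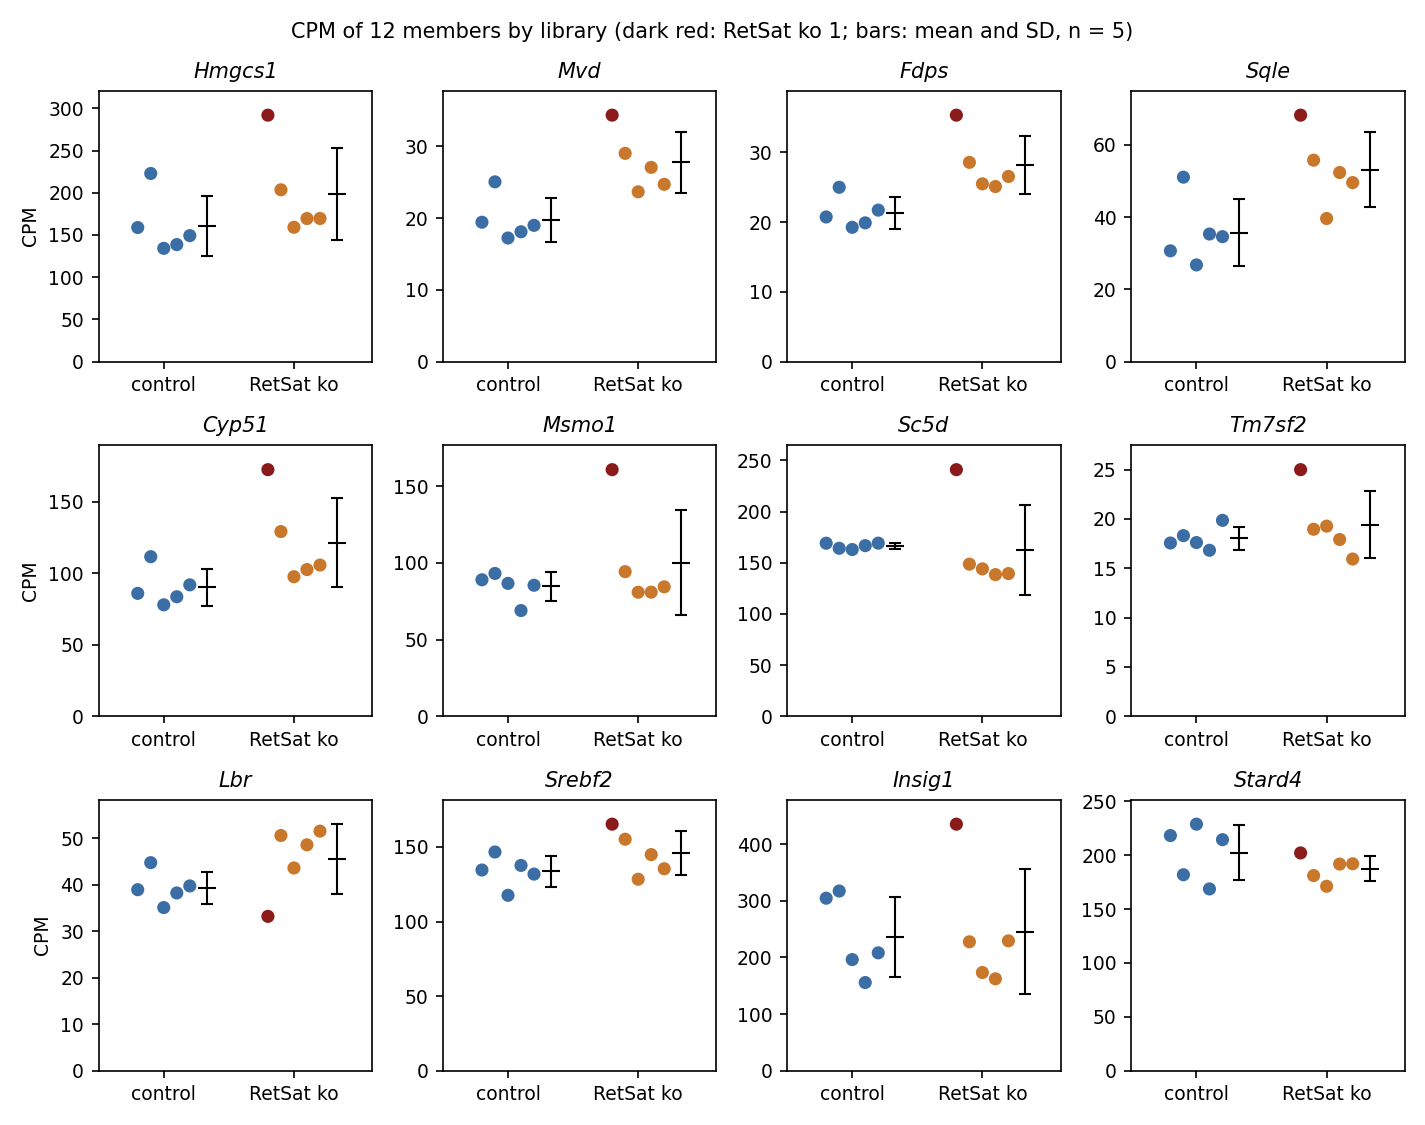
CPM (y axis from 0) of 12 members in the 5 control (blue) and 5 RetSat ko libraries (orange, with RetSat ko 1 in dark red), with the mean and SD of each group as a bar. RetSat ko 1 is the top point for 10 of the 12, the bottom point for Lbr and inside the control range for Stard4.

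Of the 9 genes between lanosterol and cholesterol, 8 were positive, with a median of 0.11, and Cyp51 alone was higher at an unadjusted p under 0.05. Cyp51 (ENSMUSG00000001467.6, GRCm39 chromosome 5, 4131145 to 4154746, minus strand), which removes the first methyl group of lanosterol, was at 86, 112, 77.9, 83.6 and 91.9 CPM in control 1 to 5 and 173, 129, 97.6, 103 and 106 CPM in RetSat ko 1 to 5. RetSat ko 1 and 2 exceeded every control, and RetSat ko 3, 4 and 5 exceeded all but control 2. In the fit of all libraries the log2 fold change was 0.43 ± 0.157 (adjusted p = 0.331 in edgeR), and 0.27 ± 0.111 without RetSat ko 1. It shares 166 exon bases with Akap9 on the opposite strand, whose log2 fold change was -0.53 ± 0.122.

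Tm7sf2 and Lbr encode the pair of sterol C14 reductases, the second of which is also a receptor of the nuclear lamina. Tm7sf2 (ENSMUSG00000024799.17, GRCm39 chromosome 19, 6112851 to 6118403, minus strand) was at 17.6, 18.3, 17.6, 16.8 and 19.9 CPM in control 1 to 5 and 25, 19, 19.3, 17.9 and 15.9 CPM in RetSat ko 1 to 5. RetSat ko 1 was the highest and RetSat ko 5 the lowest of all libraries. Its difference was 0.11 ± 0.107 on the log2 scale (adjusted p = 0.713 in edgeR) and turned to -0.00042 without RetSat ko 1, and 532 of its exon bases are shared with Vps51 on the same strand.

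Lbr (ENSMUSG00000004880.12, GRCm39 chromosome 1, 181642900 to 181670611, minus strand) was at 38.9, 44.7, 35.1, 38.2 and 39.7 CPM in control 1 to 5 and 33.2, 50.6, 43.6, 48.6 and 51.5 CPM in RetSat ko 1 to 5. Here RetSat ko 1 was the lowest of all 10 libraries, RetSat ko 2, 4 and 5 exceeded every control, and RetSat ko 3 was below control 2 alone. The log2 fold change was 0.21 ± 0.113 (adjusted p = 0.469 in edgeR) with all libraries and 0.30 ± 0.0766 without RetSat ko 1, when it passed. The ratio of Tm7sf2 to Lbr per transcript length was 0.498 ± 0.0432 over the controls and 0.486 ± 0.191 over RetSat ko (SD, n = 5), with 0.815 in RetSat ko 1 and 0.335 to 0.478 in RetSat ko 2 to 5.

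Msmo1 (ENSMUSG00000031604.11, GRCm39 chromosome 8, 65171173 to 65186826, minus strand), the C4 methylsterol monooxygenase, was at 88.9, 93.1, 86.6, 68.9 and 85.4 CPM in control 1 to 5 and 161, 94.2, 80.8, 80.9 and 84.4 CPM in RetSat ko 1 to 5. RetSat ko 1 was 1.90 times the control mean and RetSat ko 2 to 5 together 1.01 times. The log2 fold change of 0.24 ± 0.187 (adjusted p = 0.618 in edgeR) was 0.0091 ± 0.0864 without that library. Nsdhl (ENSMUSG00000031349.5, GRCm39 chromosome X, 71962163 to 72002120, plus strand), the dehydrogenase of the same demethylation, was at 27.3, 30.4, 29, 25.6 and 28.9 CPM in control 1 to 5 and 35.1, 30.2, 24.8, 28.9 and 29 CPM in RetSat ko 1 to 5. RetSat ko 1 was the highest library and RetSat ko 3 the lowest, with a log2 fold change of 0.068 ± 0.0880 (adjusted p = 0.782 in edgeR). Hsd17b7 (ENSMUSG00000026675.13, GRCm39 chromosome 1, 169777104 to 169796810, minus strand), the 3-ketosteroid reductase that completes it, was at 27.5, 30.4, 32.3, 25.5 and 25.7 CPM in control 1 to 5 and 38.3, 29.4, 24.1, 26.8 and 27.2 CPM in RetSat ko 1 to 5. Again RetSat ko 1 was highest and RetSat ko 3 lowest. The fit gave a log2 fold change of 0.042 ± 0.118 (adjusted p = 0.909 in edgeR) and -0.075 ± 0.0883 without RetSat ko 1.

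Ebp (ENSMUSG00000031168.15, GRCm39 chromosome X, 8051568 to 8059751, minus strand), the sterol isomerase that moves the ring double bond, was at 84.1, 83.3, 79.1, 84 and 84.7 CPM in control 1 to 5 and 101, 82.2, 86.2, 77.8 and 81.1 CPM in RetSat ko 1 to 5. RetSat ko 1 alone left the narrow band of the others. On the log2 scale it differed by 0.045 ± 0.0724 (adjusted p = 0.829 in edgeR), and -0.021 ± 0.0483 without that library.

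Sc5d (ENSMUSG00000032018.15, GRCm39 chromosome 9, 42162891 to 42175552, minus strand), the lathosterol oxidase near the end of the pathway, was at 169, 164, 163, 167 and 169 CPM in control 1 to 5 and 241, 149, 144, 138 and 139 CPM in RetSat ko 1 to 5. The controls were tighter than for any other member (coefficient of variation 1.70%), RetSat ko 1 lay far above them, and RetSat ko 2 to 5 all lay below every control. The 2 sides nearly cancelled, with a log2 fold change of -0.036 ± 0.140 (adjusted p = 0.936 in edgeR). Without RetSat ko 1 it was -0.22 ± 0.0457, and the groups no longer overlapped, as for 6.22% of all tested genes in that direction. It turned positive when RetSat ko 3 (0.0033), RetSat ko 4 (0.015) or RetSat ko 5 (0.013) was left out.

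Dhcr7 (ENSMUSG00000058454.16, GRCm39 chromosome 7, 143376882 to 143402147, plus strand), which makes cholesterol from 7-dehydrocholesterol, was at 66.8, 70.8, 65.8, 53.5 and 60.7 CPM in control 1 to 5 and 73.2, 72.6, 59.2, 67.9 and 68.9 CPM in RetSat ko 1 to 5. RetSat ko 1 and 2 were slightly above every control and RetSat ko 3 to 5 inside the control range. Dhcr7 had a log2 fold change of 0.11 ± 0.0845 (adjusted p = 0.630 in edgeR).

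**Figure D4:**
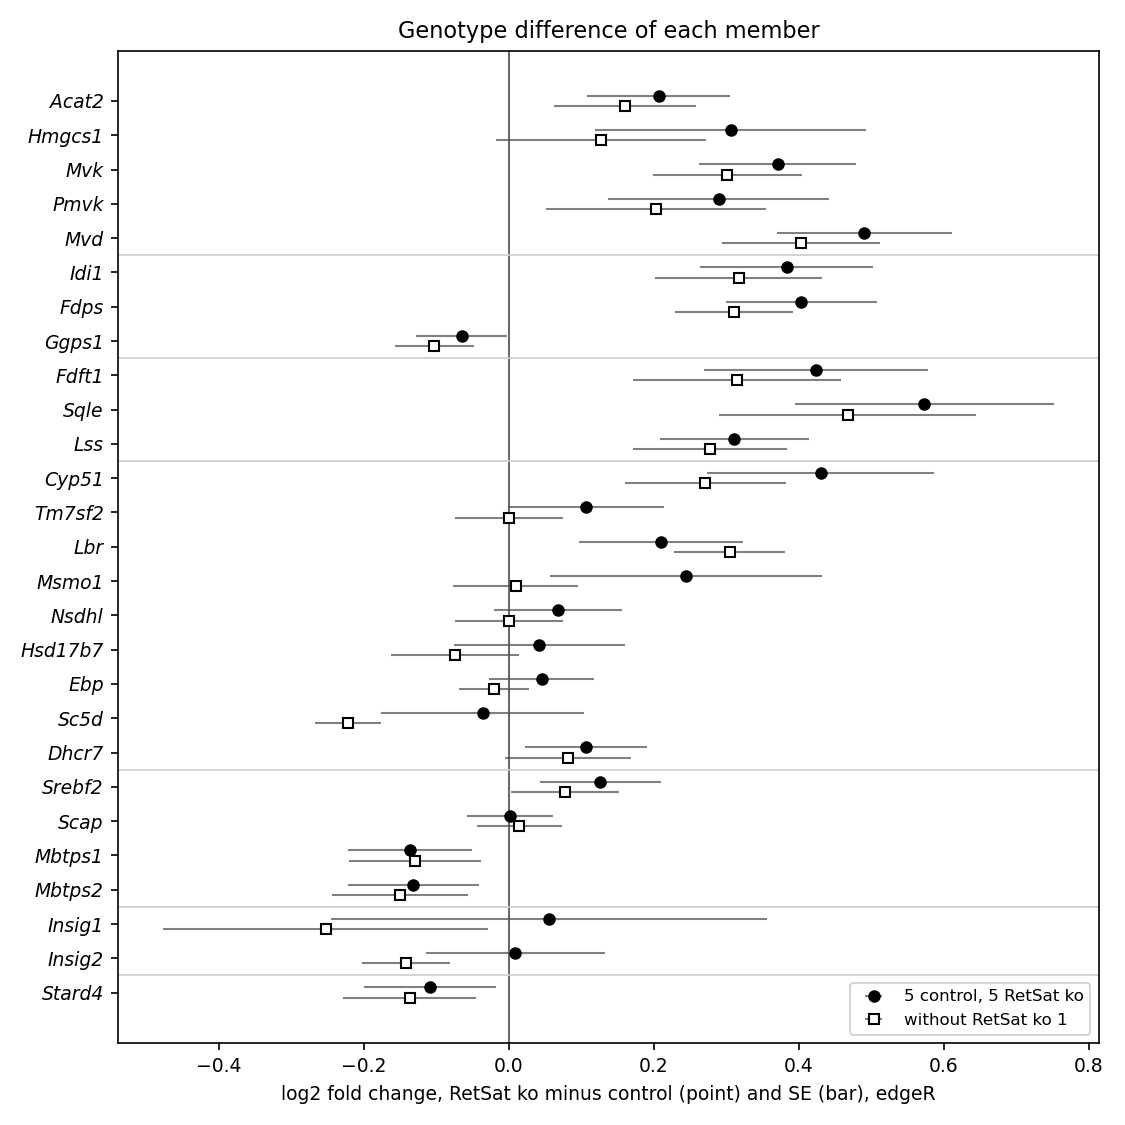
Log2 fold change of each member, RetSat ko minus control (x axis), with its SE as a bar, from the edgeR fit of all 10 libraries (filled circles) and from the fit without RetSat ko 1 (open squares), in pathway order. The block from Mvk to Cyp51 lies right of 0 in both fits except Ggps1, while Sc5d, Insig1 and Insig2 lie at or near 0 with all libraries and left of it without RetSat ko 1.

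SREBP2 and the 3 genes of its processing had a median log2 fold change of -0.065, and 0 of the 4 reached an unadjusted p under 0.05 in edgeR, as in DESeq2. Srebf2 (ENSMUSG00000022463.9, GRCm39 chromosome 15, 82031382 to 82089580, plus strand), the gene of SREBP2, was at 135, 147, 118, 138 and 132 CPM in control 1 to 5 and 165, 155, 128, 145 and 135 CPM in RetSat ko 1 to 5. RetSat ko 1 and 2 exceeded every control and the other 3 lay inside the control range, with a log2 fold change of 0.13 ± 0.0833 (adjusted p = 0.559 in edgeR). Scap (ENSMUSG00000032485.15, GRCm39 chromosome 9, 110162356 to 110214018, plus strand), the escort, was at 36.5, 36.7, 38, 38.1 and 42.6 CPM in control 1 to 5 and 37.1, 40.1, 37.7, 38.9 and 38.3 CPM in RetSat ko 1 to 5. All RetSat ko libraries lay inside the control range. Its difference was 0.0012 ± 0.0592 on the log2 scale (adjusted p = 0.996 in edgeR), so near 0 that its sign turned under RLE factors (-0.0093) and when control 1 (-0.018), control 2 (-0.015), control 3 (-0.0017), control 4 (-0.0025), RetSat ko 2 (-0.015) or RetSat ko 4 (-0.0043) was left out.

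Mbtps1 and Mbtps2 encode the site-1 and site-2 proteases that cut SREBP2 in the Golgi. Mbtps1 (ENSMUSG00000031835.17, GRCm39 chromosome 8, 120234895 to 120285474, minus strand) was at 104, 95.7, 122, 109.9 and 107 CPM in control 1 to 5 and 96.4, 94.1, 85.6, 113 and 100.4 CPM in RetSat ko 1 to 5. RetSat ko 2 and 3 lay below every control and the rest overlapped, with a log2 fold change of -0.14 ± 0.0855 (adjusted p = 0.535 in edgeR). Mbtps2 (ENSMUSG00000046873.19, GRCm39 chromosome X, 156318367 to 156381711, minus strand) was at 14.3, 14.6, 13.8, 13.4 and 12.3 CPM in control 1 to 5 and 13.1, 12.2, 11, 14.6 and 11.3 CPM in RetSat ko 1 to 5. RetSat ko 2, 3 and 5 lay below every control, with a log2 fold change of -0.13 ± 0.0902 (adjusted p = 0.571 in edgeR). Of the exon bases of Mbtps2 28.4% (2867) are shared with Yy2 on the same strand, which held 0 counts. A read wholly inside them overlaps both genes alike, so the counts of Mbtps2 are uncertain there.

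Insig1 and Insig2 encode the proteins that hold SCAP in the endoplasmic reticulum, and Insig1 is itself a target of SREBP2. Insig1 (ENSMUSG00000045294.12, GRCm39 chromosome 5, 28276361 to 28283660, plus strand) was at 304, 317, 196, 156 and 208 CPM in control 1 to 5 and 435, 227, 173, 162 and 229 CPM in RetSat ko 1 to 5. It was the most variable member in both groups, with coefficients of variation of 30.02% in control and 45% in RetSat ko, and RetSat ko 1 was highest by far. The fitted difference was 0.055 ± 0.3005 on the log2 scale (adjusted p = 0.958 in edgeR), and -0.25 ± 0.225 without RetSat ko 1. In RetSat ko 2 to 5 its mean was 0.838 times the control mean and that of Sqle was 1.38 times, the lowest and the highest ratio of all members. These genes were set side by side after their values were seen, and the difference between them was not tested. In RetSat ko 1 Insig1 was 1.84 times and Sqle 1.91 times the control mean.

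Insig2 (ENSMUSG00000003721.15, GRCm39 chromosome 1, 121232082 to 121260318, minus strand) was at 47, 49, 48.1, 48.7 and 44.4 CPM in control 1 to 5 and 66.8, 41, 46.6, 44.3 and 39.9 CPM in RetSat ko 1 to 5. The controls were nearly level, RetSat ko 1 was 1.41 times their mean, and RetSat ko 2, 4 and 5 were below every control. Its log2 fold change was 0.0086 ± 0.123 (adjusted p = 0.985 in edgeR) and -0.14 ± 0.0610 without RetSat ko 1. Per transcript length Insig1 was 5.59 ± 1.64 times Insig2 over the controls and 5.65 ± 1.44 times over RetSat ko (SD, n = 5), with overlapping ranges of 3.58 to 7.27 and 4.11 to 7.32.

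Stard4 (ENSMUSG00000024378.10), a soluble sterol carrier and SREBP2 target, was at 218, 182, 229, 169 and 214 CPM in control 1 to 5 and 202, 181, 171, 192 and 192 CPM in RetSat ko 1 to 5. All RetSat ko libraries lay inside the control range. On the log2 scale it differed by -0.11 ± 0.0911 (adjusted p = 0.648 in edgeR), and Stard4 was the one member outside SREBP processing where RetSat ko 1 stood neither highest nor lowest.

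Levels were compared between genes as RPKM, CPM per 1000 bases of exon. Insig1 was the most abundant member in control at 76.4 ± 22.9 RPKM (SD, n = 5), and Mbtps2 the least at 1.35 ± 0.0888. Stard4 (36.2 ± 4.61), Ebp (35.9 ± 0.976), Hmgcs1 (35 ± 7.84) and Sc5d (34.2 ± 0.583) came next, each within 1 SD of its neighbour in this order. Cyp51 (20.4 ± 2.94) and Srebf2 (18.6 ± 1.47) followed, with control ranges that overlapped. Sqle was at 6.44 ± 1.67 and Fdps at 5.06 ± 0.535, and next above Mbtps2 at the low end came Idi1 at 1.95 ± 0.260 and Lss at 2.06 ± 0.265. The exon length in the files covers all transcripts of a gene, which lowers the value of genes with long or many transcripts such as Lss and Mbtps2. The level of Mbtps2 is also uncertain over the exon bases it shares with Yy2.

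**Figure D5:**
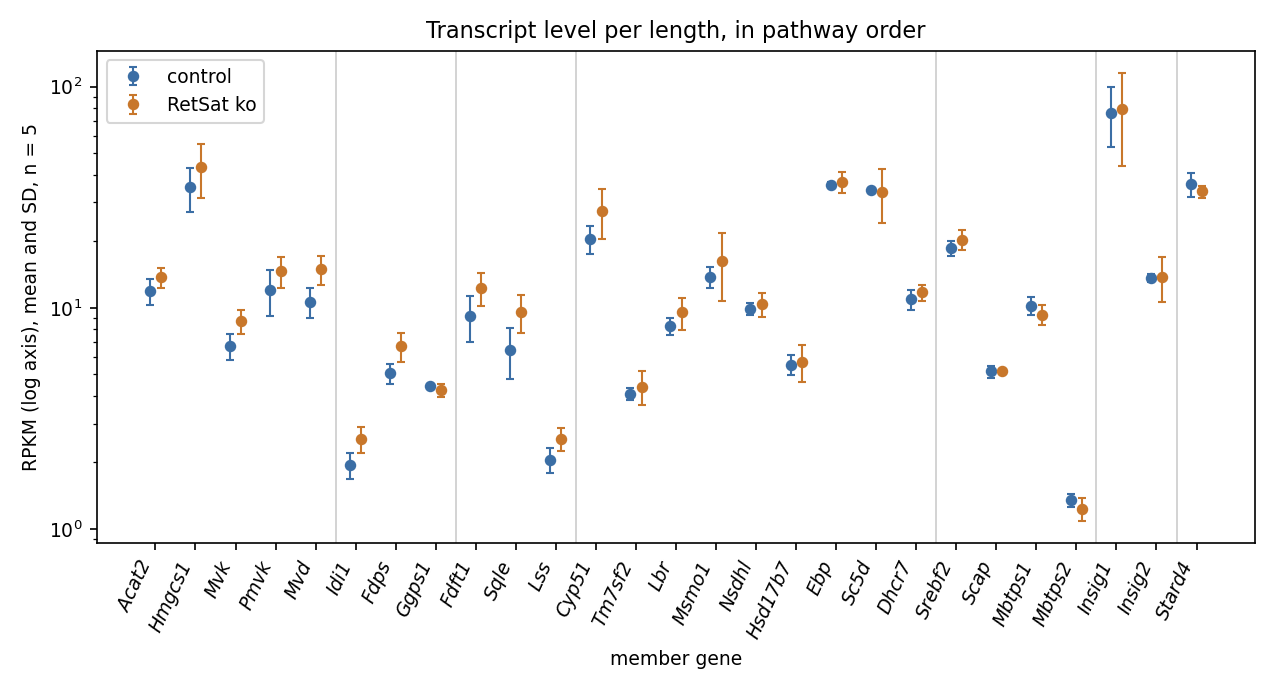
Transcript level per length (RPKM, log axis) of each member in pathway order, mean and SD of 5 control (blue) and 5 RetSat ko (orange) libraries. Insig1 is highest and Mbtps2 lowest in both groups, and the SD of Insig1, Msmo1, Sc5d and Insig2 in RetSat ko is wide where RetSat ko 1 stands apart.

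Genes around the pathway were taken from 6 lists with 68 tested genes. In edgeR 0 of the 68 passed the adjusted threshold, with 6 higher and 9 lower at an unadjusted p under 0.05, against 6.79% and 5.45% of all tested genes, and each list's counts are read against the same shares. Of the 68, 30 were positive, against 53.9% of all tested genes, and the median was -0.053. DESeq2 called 2, Abcg8 and Abcg5, and without RetSat ko 1 edgeR called 6, where 1.95% of all genes were called higher and 2.5% lower.

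The 11 genes of SREBP1 and fatty acid synthesis held 3 of the higher genes and 0 lower. Thrsp, a lipogenic nuclear protein, was at 0.538, 0.507, 0.542, 0.397 and 0.625 CPM in control 1 to 5 and 0.647, 0.721, 1.08, 1.38 and 2.61 CPM in RetSat ko 1 to 5, and its log2 fold change was 1.31 ± 0.349 (adjusted p = 0.291 in edgeR). Thrsp was lower in RetSat ko 1 than in RetSat ko 2 to 5. Adipocyte markers other than Cidec summed to 0.157, 1.51, 12.8, 19.8 and 27.7 CPM in RetSat ko 1 to 5, the same order of libraries as Thrsp. In control 1 to 5 they summed to 0.454, 3.33, 9.90, 0.0691 and 0.267 CPM, which was not the order of Thrsp. Among the controls Thrsp was highest in control 5, and the sum of these markers was highest in control 3. Their part in the Thrsp values was not tested. Scd2, a fatty acid desaturase, had 0.51 ± 0.183 (adjusted p = 0.323 in edgeR), and both were called higher without RetSat ko 1 (1.48 and 0.65). The ratio of Srebf2 to Srebf1 per length was 0.561 ± 0.317 over the controls and 0.735 ± 0.101 over RetSat ko (SD, n = 5). All RetSat ko values (0.625 to 0.822) lay inside the control range of 0.314 to 1.11, so the groups overlapped. They lay below control 4 at 1.11 and above control 1, 2, 3 and 5, which ran from 0.314 to 0.550. The controls were split in this way after their values were seen, and the ratio was not tested.

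The 7 genes of sterol transport and LXR held 0 higher and 2 lower genes. Abcg8, a subunit of the brush border exporter that returns sterol to the gut lumen, was at 261, 252, 248, 266 and 247 CPM in control 1 to 5 and 195, 169.7, 171, 213 and 169 CPM in RetSat ko 1 to 5. Its groups did not overlap, with every RetSat ko library lower, as for 0.729% of all tested genes. The log2 fold change was -0.47 ± 0.0783 (adjusted p = 0.106 in edgeR). Abcg8 passed when RetSat ko 1 (-0.50) or RetSat ko 4 (-0.53) was left out. Its partner subunit Abcg5 had -0.36 ± 0.0927 (adjusted p = 0.291 in edgeR), and -0.42 without RetSat ko 1, when it passed.

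The 12 genes of SREBP and sterol enzyme turnover held 0 higher and 3 lower genes. Marchf6, a ubiquitin ligase that marks squalene epoxidase for breakdown, had a log2 fold change of -0.35 ± 0.115 (adjusted p = 0.311 in edgeR), and -0.46 without RetSat ko 1, when it passed. Erlin2, an endoplasmic reticulum protein of the same turnover, had -0.23 ± 0.0871. The 12 SREBP partners and coat proteins of the vesicles that leave the endoplasmic reticulum held 0 higher and 3 lower, with -0.20 ± 0.0746 for Sec24c and -0.40 ± 0.158 for Sec24d, both coat subunits.

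Of the 13 isoprenoid branch enzymes, 1 was higher, Rabggtb, a subunit of the transferase that attaches geranylgeranyl groups to Rab proteins, with 0.22 ± 0.0609 (adjusted p = 0.291 in edgeR). Its groups did not overlap, as for 1.58% of all tested genes in that direction. Coq2, which prenylates the ubiquinone ring, had 0.11 ± 0.0570. The 13 genes of acetyl units, electron donors, esterification and sterol movement held 2 higher and 1 lower. Por, which passes electrons to the enzymes of Cyp51 and Sqle, had -0.50 ± 0.165 (adjusted p = 0.313 in edgeR), and Tmem97, a membrane protein also known as the sigma-2 receptor, had 0.24 ± 0.0847.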

How the data were processed

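The deposited values are counts of reads per gene in 10 jejunum libraries, 1 file each, and groups follow the genotype in the labels. The submitters' processing notes name Trimmomatic, STAR and the builds GRCm39 and mm39. Per the file headers, counting used featureCounts 2.0.1 over exons by gene in GENCODE M28, giving a read to the gene with the largest overlap, with no option for strand, read pairs or multiple alignments. Overlapping genes on opposite strands are therefore not separated, and near-identical copies are uncertain (blastn 2.17.0, at least 95% identity over 200 bases). No source used here says whether reads were paired.

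From these counts, edgeR 4.0.16 in R 4.3.3 (filterByExpr, TMM factors, robust quasi-likelihood F-test, 5 against 5 libraries, no covariate) tested 18654 genes with Benjamini-Hochberg adjustment over all of them at 0.05. CPM uses the TMM-adjusted library size, and RPKM divides it by the exon length in the files. Depth was 102844680 to 128730695 counts per library, at which the members had at least 633 counts in each. Counting error is thus small beside the spread between samples. Symbols were matched for 94.0% of identifiers, and 0.810% of counts lay on identifiers without one. The fit was tested on simulated counts.

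The members, lists and tests were chosen with earlier results of these data known. Named genes are Retsat, all members, and the 2 genes of smallest unadjusted p in each related list, others being said to be named after their values were seen. Some genes of the lists are not reported here. Alternatives tried were other tools (DESeq2 1.42.0 and limma-voom 3.58.1, the latter also with sample weights), other size factors (RLE, upper-quartile), other filters (none, or 1 CPM in 5 libraries), estimates that are not robust, a replicate block, and each library left out in turn. Leaving out the acinar-rich or the B cell-rich libraries was chosen after seeing the data. Promoters came from RefSeq (GRCm38.p6), and gene coordinates are those of the files (GRCm39). Coordinates of the 2 builds were not mixed. Near-identical copies were sought among the transcripts of an older GENCODE release, that of the promoter build, and joined to the counts by gene identifier.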

Additional observations from a re-analysis of the deposited data

Results flagged for a closer look

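In groups of 5 libraries, a library was set aside for a closer look where its gap to the nearest other exceeded 0.71 of the range of its group. This held for 4 of 27 members in each group, against 6.80% of all tested genes in control and 9.56% in RetSat ko, and chance alone gives about 1 in 20. In control, Hmgcs1 was 223 CPM and Mvd 25.04 CPM in control 2, far above the other 4, Ebp was 79.1 CPM in control 3, below them, and Scap was 42.6 CPM in control 5, above them. In RetSat ko all 4 lay in RetSat ko 1 and far above the others of the group, with Msmo1 at 161 CPM, Sc5d at 241 CPM, Insig1 at 435 CPM and Insig2 at 66.8 CPM. What sets RetSat ko 1 apart was not tested.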

How the results depend on the processing

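Over 21 alternatives, 16 of the 27 members kept the sign of their log2 fold change and 11 did not. The number of members called was 0 in all but DESeq2 (1) and the fits that leave out 1 library (0 to 2). Members higher at an unadjusted p under 0.05 ranged from 8 to 12 when 1 library was left out and numbered 3 without the 4 acinar-rich libraries, where 13 were positive. The median of the members was 0.13 with all libraries, and over the alternatives it ranged from -0.0086 without the acinar-rich libraries to 0.18 without control 2. Related genes called numbered 2 in DESeq2, 1 with sample weights, 1 without a filter and 0 to 6 when 1 library was left out. Retsat was -4.51 without the acinar-rich libraries, with an adjusted p of 0.0918 in edgeR for 3 against 3 libraries.

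Without the acinar-rich libraries the sign turned for Hmgcs1 (-0.050), Tm7sf2 (-0.0097), Msmo1 (-0.13), Nsdhl (-0.069), Hsd17b7 (-0.21), Ebp (-0.0086), Dhcr7 (-0.053), Insig1 (-0.53) and Insig2 (-0.14). Without the B cell-rich libraries it turned for Sc5d (0.048) and Scap (-0.020). With sample weights in limma-voom it turned for Tm7sf2 (-0.011), Hsd17b7 (-0.026), Ebp (-0.012), Scap (-0.0077), Insig1 (-0.22) and Insig2 (-0.089), and without weights for Insig2 (-0.018). Scap was -0.0093 with RLE factors, -0.0032 without a filter and -0.0092 in DESeq2. Leaving out 1 library, the log2 fold change ranged from -0.021 to 0.077 for Ebp, -0.075 to 0.10 for Hsd17b7, -0.25 to 0.18 for Insig1, -0.14 to 0.066 for Insig2, -0.22 to 0.015 for Sc5d, -0.018 to 0.040 for Scap and -0.00042 to 0.17 for Tm7sf2. The cause was not tested for these changes.

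Replicate numbers did not pair the samples: deviations of same-numbered samples correlated at -0.15 to 0.0021, and 0 of 5 controls matched their own number best. With the replicate block 0 members were called, 10 were higher at an unadjusted p under 0.05, and Insig2 turned to -0.018, while 4 of all genes were called against 6.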
